A study of Homo sapiens with 18 samples.

Results

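The death receptors and initiator caspases described here are 9 genes of extrinsic apoptosis: the receptors TNFRSF10A, TNFRSF10B and FAS, the ligand TNFSF10, the adaptor FADD, the caspases CASP8, CASP10 and CASP9, and the caspase-8 regulator CFLAR. They were taken by gene symbol from the annotation of the array's features (spots of 1 probe), by their role in the pathway and with no threshold on a measured value. The 9 genes hold 46 of the 31332 features with a single gene and are 9 of the 18334 genes tested. All 9 were measured on every array, and no filter on low values was applied.

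The cells were K562, an established line of human chronic myelogenous leukaemia, used on 18 arrays with 2 colours. The 4 states were untreated cells, cells with TNFalpha, cells with heteronemin (a sesterterpenoid from a marine sponge), and cells with both agents. Heteronemin was given at 6 µM at 0 h and TNFalpha at 10 ng/mL at 2 h, with DMSO and water as the respective vehicles. All cells were collected at 6 h, so the TNFalpha exposure lasted 4 h. The line was labelled DNSZ K562 in both channels of every array, and the labels name no genetic change in any state. Arrays set TNFalpha-treated against untreated cells, heteronemin-treated against untreated cells, and cotreated against TNFalpha-treated cells. Each comparison had 3 biological replicates, and each replicate had 2 arrays with the dyes exchanged, which were averaged, so n = 3 throughout.

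Death receptors are membrane proteins whose cytoplasmic death domain gathers the adaptor FADD when a ligand binds. FADD in turn gathers caspase-8 and caspase-10, whose proximity activates them, and CFLAR (c-FLIP), a caspase-8 relative without enzyme activity in its long form, can take their place and limit that step. TNFSF10 encodes TRAIL, the ligand of TNFRSF10A (death receptor DR4) and TNFRSF10B (death receptor DR5), while FAS binds the Fas ligand. Caspase-9 is the initiator of the separate mitochondrial route, and TNF receptor signalling can lead to the same caspases or to NF-kB target genes, among which CFLAR is a textbook survival gene.

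Promoter sequences are shown for TNFSF10, whose ratios had opposite signs in the TNFalpha and cotreatment arrays, and for CFLAR, whose heteronemin ratio differed most between cells with and without TNFalpha by unadjusted p. Each is the 200 bases before a gene start in RefSeq on the GRCh38.p14 build, written 5′ to 3′ on the gene's strand. The TNFSF10 window lies at chr3:172523431-172523630 on the minus strand, upstream of the transcribed region. Its capitals mark an interferon response element (here read on the other strand, starting 187 bases before the gene start) and a TATA box (TATAAA, starting 31 bases before it). The CFLAR window lies at chr2:201118516-201118715 on the plus strand, and its capitals mark a match to the NF-kB consensus starting 97 bases before the gene start. Among the 4 CFLAR windows it was chosen for printing because it holds this match.
TNFSF10: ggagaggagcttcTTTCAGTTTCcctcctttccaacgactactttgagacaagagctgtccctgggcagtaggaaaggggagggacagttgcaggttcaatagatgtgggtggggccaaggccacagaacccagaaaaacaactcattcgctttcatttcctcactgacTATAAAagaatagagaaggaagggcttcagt
CFLAR: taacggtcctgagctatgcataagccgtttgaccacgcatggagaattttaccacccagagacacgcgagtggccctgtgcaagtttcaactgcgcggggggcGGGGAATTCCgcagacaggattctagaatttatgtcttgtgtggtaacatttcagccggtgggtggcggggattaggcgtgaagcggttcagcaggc

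In the RefSeq table, windows of 6 of the 9 genes were used, 14 in all. Windows on chromosome 8, where TNFRSF10A and TNFRSF10B lie, were left out for the 9 genes, and CASP10 had no window. The NF-kB consensus was searched on both strands and was found in 1 of 4 CFLAR windows and 1 of 3 FAS windows, against 8.14% of 35116 promoters. The interferon response element (both strands, 2.4% of promoters) was found in the single TNFSF10 window. The TATA box, searched on the gene's strand only (5.58% of promoters), was found in that window and in 1 of 3 CASP8 windows. The AP-1 motif TGANTCA (both strands, 5.38% of promoters) was found in 1 CFLAR and 1 CASP8 window. These matches describe letters in the windows and are no evidence of binding. CFLAR, CASP10 and CASP8 follow one another in this order on chromosome 2, with no other protein-coding gene between them in the RefSeq table.

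The deposited values are log2 ratios, read as treated over control from the array titles. Between the 2 arrays of a replicate the ratios correlated across genes at 0.0331 to 0.243 in the TNFalpha comparison and at 0.259 to 0.513 in the heteronemin comparisons, where replicate 1 had the largest spread over genes (SD 0.329 and 0.384). Genes were tested with limma, two-sided, and a call needs an adjusted p under 0.05 after Benjamini-Hochberg adjustment over all 18334 genes. Values below are mean log2 ratios ± SD (n = 3), with limma's adjusted p. The TNFalpha RNA is the treated sample in the first comparison and the control in the cotreated one, and the first and second comparison share the untreated state, so the values of the 9 genes in them are set side by side. Total RNA of a culture cannot tell less RNA per cell from fewer cells with the RNA. Levels were not used here, so erythroid and megakaryocytic identity could not be checked by level. In any comparison, 0 of 9 measured erythroid genes were called. Of 7 megakaryocytic genes only the platelet glycoprotein gene GP9 was called, at 0.24 ± 0.06 with heteronemin alone (adjusted p = 0.0427). The shares called over all genes were 0% with TNFalpha, 4.87% with heteronemin alone and 6.55% in cotreated cells.

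With heteronemin alone, 1 of the 9 genes rose (CASP10) and 1 fell (TNFRSF10A), where 4.87% of all genes were called (2.29% higher and 2.58% lower). In cells with TNFalpha, adding heteronemin gave 2 higher (TNFRSF10B and CASP10) and 1 lower (TNFRSF10A), where 6.55% were called (3.39% higher and 3.15% lower). TNFalpha alone gave 0 of 9, where 0% of all genes were called, with 315 genes at an unadjusted p under 0.05 and a smallest adjusted p of 0.0567. The median over the 9 genes was 0.10 with TNFalpha, 0.01 with heteronemin and −0.05 in cotreated cells, beside −0.00, 0.01 and 0.01 over all genes. The 5 called changes were small, with folds from 0.795 to 1.25. None of them held when each comparison was fitted alone (limma adjusted p from 0.142 to 0.267) or on the Cy3 arrays alone. With a trended and robust prior TNFRSF10A in cotreated cells was the only one to hold (adjusted p = 0.0469). Among all genes, too, 0 were called in either heteronemin comparison when fitted alone. With heteronemin alone, 0 of all genes were called under that prior and 553 on the Cy3 arrays.

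**Figure D1:**
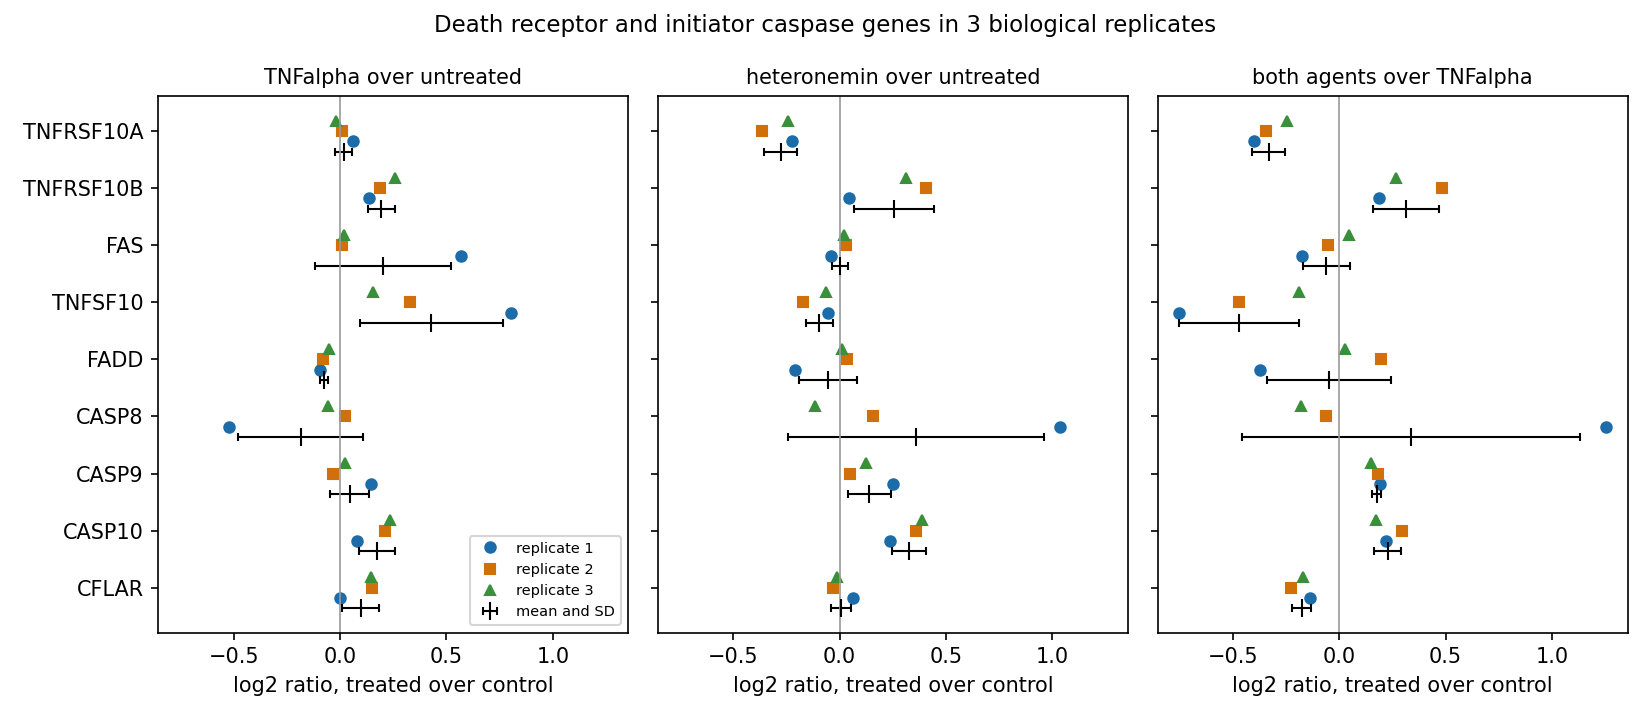
Log2 ratio (treated over control, horizontal axis) of each of the 9 genes in the 3 comparisons; coloured symbols are the 3 biological replicates, and the black tick and bar are their mean and SD. TNFRSF10A lies below 0 in all replicates of both heteronemin comparisons, CASP10 lies above 0 in all 9, and CASP8 has 1 replicate of each comparison far from the other two.

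In TNFalpha-treated cells given heteronemin, TNFRSF10A fell and TNFRSF10B rose, so the genes of these death receptors for TRAIL changed in opposite directions. TNFRSF10A was at −0.22, −0.36 and −0.24 in replicates 1 to 3 with heteronemin alone, and at −0.40, −0.35 and −0.25 in cells that also had TNFalpha. Every one of the 12 arrays was below 0, between −0.18 and −0.50, and no replicate reached 0 in either comparison. Over all genes, 7.43% were below 0 on all 6 arrays with heteronemin alone and 7.07% in cotreated cells. The gene fell by 0.28 ± 0.08 with heteronemin alone (0.825-fold, adjusted p = 0.0144) and by 0.33 ± 0.08 in TNFalpha-treated cells (0.795-fold, adjusted p = 0.00563). With TNFalpha alone it was at 0.06, 0.01 and −0.02, a spread around 0. TNFRSF10A has a single feature, so no second probe bears on it. Leaving out replicate 2 or 3 of heteronemin alone gave −0.23 (adjusted p = 0.113) and −0.29 (adjusted p = 0.0556), while in TNFalpha-treated cells the call held without each replicate of that comparison, and was lost when replicate 2 or 3 was left out of all comparisons (adjusted p = 0.222 and 0.120). Without replicate 1 it held in every such fit.

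TNFRSF10B, the receptor for TRAIL most often tied to stress responses, was above 0 in every replicate of every comparison. It stood at 0.14, 0.19 and 0.26 with TNFalpha, at 0.04, 0.41 and 0.31 with heteronemin, and at 0.19, 0.48 and 0.27 when heteronemin was added to TNFalpha. The replicates of the 3 comparisons overlapped. When heteronemin was added to TNFalpha the gene rose, by 0.31 ± 0.15 (1.24-fold, adjusted p = 0.0494), just inside the threshold. Heteronemin alone was at 0.25 ± 0.19 (adjusted p = 0.114) and TNFalpha alone at 0.19 ± 0.06 (adjusted p = 1.00, unadjusted p = 0.0341). The TNFalpha ratio was above 0 on all 6 arrays, as it was for 1.61% of all genes, while 1.27% were below 0 on all 6. Without replicate 1, 2 or 3 of the cotreated comparison the adjusted p was 0.0512, 0.227 and 0.118, and with the arrays scaled to a common spread it was 0.0651. Without replicate 1 in all comparisons, heteronemin alone was called too (0.36, adjusted p = 0.00763).

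Its 2 features, both annotated to NM_003842, differed in evenness. In cotreated cells one was at 0.29, 0.29 and 0.28 (adjusted p = 0.0211 over all features, of which 6% were called), and the other at 0.34 ± 0.31 (adjusted p = 0.149). In all 9 replicates the array with the treated RNA in Cy5 gave a higher TNFRSF10B ratio than its dye-exchanged partner, an order that the average of the pair holds equally on both sides.

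FAS, the receptor of the Fas ligand, was not called anywhere. With TNFalpha it was at 0.57, 0.01 and 0.02, so that replicate 1 alone gave the mean of 0.20 ± 0.32 (adjusted p = 1.00). Both arrays of replicate 1 were high, at 0.65 and 0.48, and the other 4 lay between −0.04 and 0.06. Of its 10 features of NM_000043, 9 moved together across the 18 arrays (r over 0.8 with their median), with a median of 0.63 in replicate 1 against 0.02 and 0.03. A feature of the separate transcript AK026195 was at 0.15, −0.03 and 0.03. With heteronemin alone FAS was at −0.04, 0.03 and 0.02, and in cotreated cells at −0.18, −0.05 and 0.05.

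**Figure D2:**
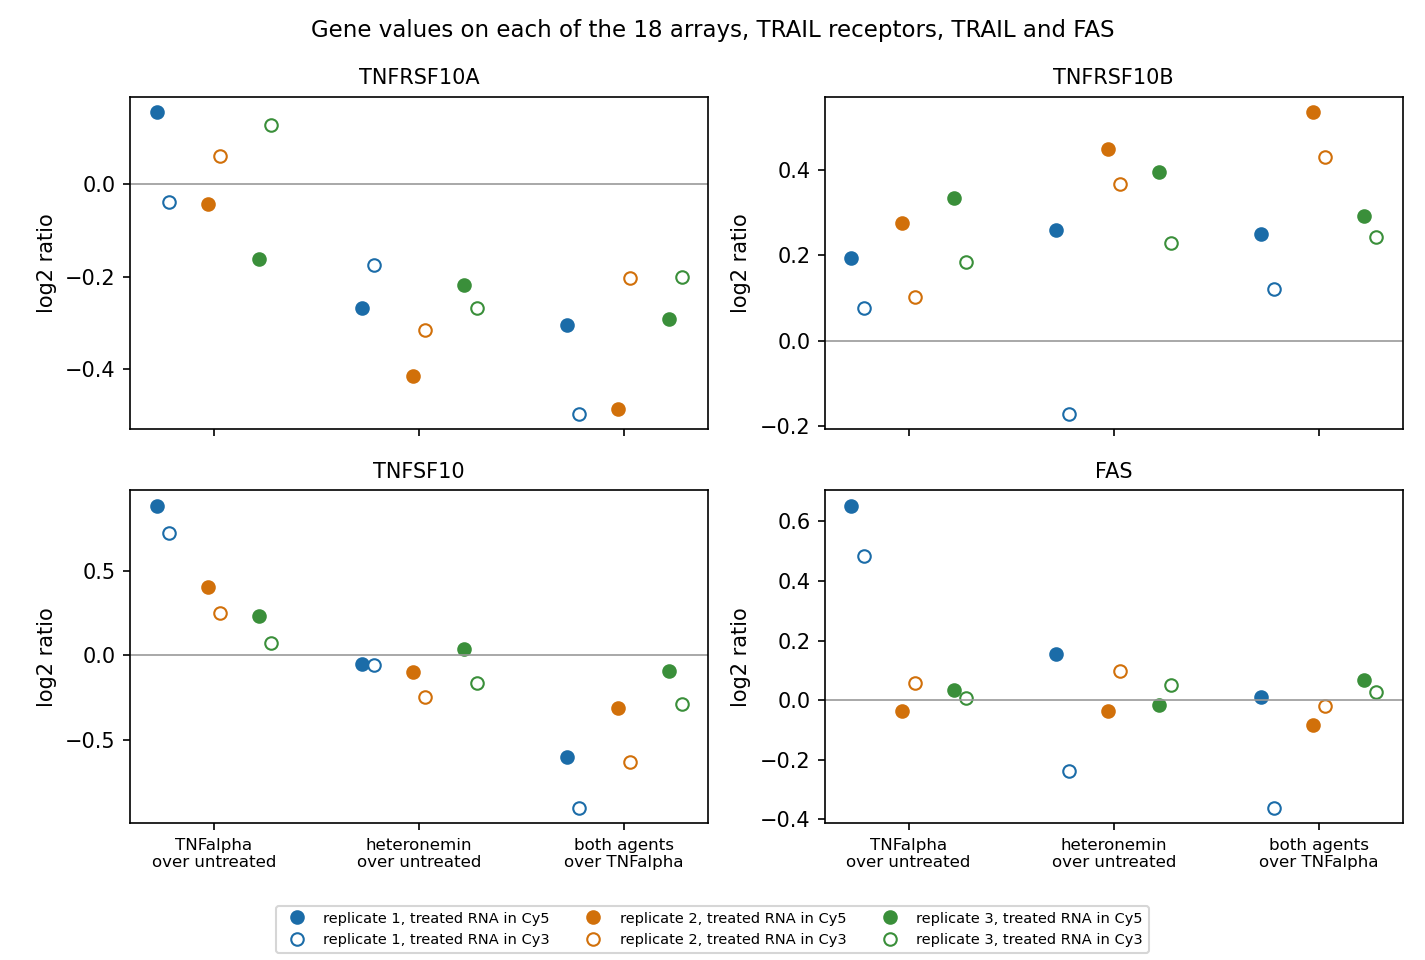
Gene-level log2 ratio (treated over control, vertical axis) of TNFRSF10A, TNFRSF10B, TNFSF10 and FAS on each of the 18 arrays; colours are the biological replicates, filled circles have the treated RNA in Cy5 and open circles in Cy3. TNFRSF10A is below 0 on all 12 heteronemin arrays, TNFSF10 is above 0 on the 6 TNFalpha arrays and below 0 on the 6 cotreated ones, and the high FAS value with TNFalpha comes from both arrays of replicate 1.

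TNFSF10, the gene of TRAIL, whose promoter window is printed above, had the largest mean ratio of the 9 genes with TNFalpha. Its values were 0.81, 0.33 and 0.15 in replicates 1 to 3, or 0.43 ± 0.34 (adjusted p = 1.00, unadjusted p = 0.00874), and all 6 arrays were above 0. When heteronemin was added to TNFalpha it was at −0.75, −0.47 and −0.19, or −0.47 ± 0.28 (adjusted p = 0.0658), with all 6 arrays below 0. The replicate that was highest with TNFalpha was lowest in cotreated cells, and replicate 3 was nearest to 0 in both, the 2 comparisons having the TNFalpha RNA in common. Heteronemin alone gave −0.05, −0.17 and −0.06 (adjusted p = 0.742). The cotreated value did not pass the test and was called in 3 of 14 other settings: with the arrays scaled to a common spread (−0.37, adjusted p = 0.0479), with Cy3 arrays only (−0.61, adjusted p = 0.0424) and without replicate 1 in all comparisons (−0.33, adjusted p = 0.0203).

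Of the 10 TNFSF10 features of NM_003810, 9 moved together, with medians of 0.94, 0.38 and 0.18 with TNFalpha and of −0.80, −0.53 and −0.22 in cotreated cells. The one annotated to BM978417 stayed near 0, at a mean of 0.00 with TNFalpha and of 0.07 in cotreated cells. The gene value is therefore pulled by the repeated accession, and averaging within accessions first (chosen after seeing the data) gave −0.23 in cotreated cells (adjusted p = 0.105). As for TNFRSF10B, the array with the treated RNA in Cy5 was the higher in all 9 replicates.

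FADD, the adaptor between receptor and caspase, was not called in any comparison. It was at −0.09, −0.08 and −0.05 with TNFalpha (adjusted p = 1.00), a narrow spread of the pair averages with small size. The single arrays split by dye: those with the treated RNA in Cy5 were all below 0 and those in Cy3 all above it, at means of −0.16 and 0.01. With heteronemin alone FADD was at −0.21, 0.04 and 0.01 (adjusted p = 0.799), and in cotreated cells at −0.37, 0.20 and 0.03 (adjusted p = 0.794), where the replicates lay on both sides of 0. The 95% interval for heteronemin alone ran from −0.27 to 0.16. One of its 2 features of NM_003824 followed the dye, with means of −0.18 and 0.19 on the heteronemin arrays with the treated RNA in Cy5 and in Cy3, and the array with Cy5 was the higher in 1 of 9 replicates for the gene.

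CASP8, the gene of the main initiator caspase of death receptors, had the largest SD of the 9 genes in both heteronemin comparisons. It was at −0.52, 0.02 and −0.06 with TNFalpha, at 1.03, 0.16 and −0.12 with heteronemin, and at 1.25, −0.06 and −0.18 in cotreated cells. Replicate 1 stood apart in all 3 comparisons, lower with TNFalpha and higher where heteronemin was added, while replicates 2 and 3 lay between −0.18 and 0.16. The means of −0.19 ± 0.29, 0.36 ± 0.60 and 0.34 ± 0.80 were smaller than or close to their SD, and the adjusted p was 1.00, 0.569 and 0.540. Without replicate 1 the cotreated mean changed sign, to −0.12.

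The CASP8 features did not all move alike. Of the 11 annotated to NM_033355, 10 moved together, with medians in replicate 1 of −0.65, 1.19 and 1.55 in the order TNFalpha, heteronemin and cotreated, and between −0.25 and 0.14 in the other replicates. Within each replicate their values lay close, for instance between 1.49 and 1.64 for cotreated replicate 1, so 10 spots read the same difference. These values are averages of 2 dye-exchanged arrays, which differed in size there. The gene was at 1.70 with the treated RNA in Cy5 and at 0.80 in Cy3. The remaining feature of NM_033355 was at 0.26, 0.51 and −0.37 in replicate 1, opposite in sign to the 10 with TNFalpha and in cotreated cells. The feature of NM_033358 was at −0.04, 0.25 and −0.15 there. Whether the 10 are copies of 1 probe was not tested, since the annotation used here gives no probe sequence.

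CASP10, the closest relative of caspase-8 in humans and its neighbour on chromosome 2, was above 0 in all 9 replicates. It was at 0.23, 0.36 and 0.39 with heteronemin alone and at 0.22, 0.29 and 0.17 in cotreated cells, and the replicates of the 2 comparisons overlapped. All 12 arrays were above 0, where 6.34% of all genes were above 0 on all 6 arrays with heteronemin alone and 6.12% in cotreated cells. CASP10 rose by 0.33 ± 0.08 with heteronemin alone (1.25-fold, adjusted p = 0.00993) and by 0.23 ± 0.06 in TNFalpha-treated cells (1.17-fold, adjusted p = 0.0321). With TNFalpha alone it was at 0.08, 0.21 and 0.24, or 0.18 ± 0.08 (adjusted p = 1.00, unadjusted p = 0.00733), with all 6 arrays above 0. Without replicate 2 or 3 of heteronemin alone the adjusted p was 0.0794 and 0.0601, and without replicate 1, 2 or 3 of the cotreated comparison it was 0.0704, 0.173 and 0.0754. With the arrays scaled to a common spread the cotreated call was lost too (0.21, adjusted p = 0.103).

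The CASP10 features had higher ratios for 1 of its 2 annotated transcripts in all replicates but cotreated replicate 1, a difference that was not tested. The 2 features of NM_032977 were at 0.61 ± 0.12 (adjusted p = 0.00312 over all features, of which 4.54% were called) and 0.45 (adjusted p = 0.0296) with heteronemin alone, and at 0.35 (adjusted p = 0.0220) and 0.26 (adjusted p = 0.157) in cotreated cells. The feature of NM_032974 was at −0.07 and 0.07 in the same comparisons (adjusted p = 0.605 and 0.544) and at 0.01 with TNFalpha. The features of NM_032977 were at 0.25 and 0.26 with TNFalpha.

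CASP9, the initiator of the mitochondrial route, was not called. Its pair averages in cotreated cells were close together, at 0.19, 0.18 and 0.15, or 0.18 ± 0.02 (adjusted p = 0.0845). All 6 arrays were above 0, as for 6.12% of all genes. The arrays of replicate 3 were unlike, at 0.30 with the treated RNA in Cy5 and at 9.15e-05 in Cy3. The narrow SD does not show this gap. With heteronemin alone CASP9 was at 0.25, 0.05 and 0.12 (adjusted p = 0.191) and with TNFalpha at 0.15, −0.03 and 0.02. The replicates of the heteronemin comparisons were all above 0 and overlapped each other. One of its 2 features of NM_001229 was at 0.24 in cotreated cells and did not pass over all features, and the other followed the dye there, with means of 0.30 and −0.07 on the arrays with the treated RNA in Cy5 and in Cy3.

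CFLAR, the inhibitor at the receptor complex, was at −0.00, 0.15 and 0.15 with TNFalpha and at 0.06, −0.03 and −0.01 with heteronemin alone. In cotreated cells it was at −0.14, −0.22 and −0.17, or −0.18 ± 0.05, with all 6 arrays below 0, and did not pass the test (adjusted p = 0.0581). No replicate of the cotreated comparison overlapped those of the other two. The cotreated value was called in 2 of 14 other settings, with Cy5 arrays only (−0.25, adjusted p = 0.0145) and without replicate 1 in all comparisons (−0.20, adjusted p = 0.0114). The means over Cy5 and Cy3 arrays were −0.25 and −0.10.

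The 2 CFLAR features differed. That of NM_001127184 was at −0.43, −0.28 and −0.27 in cotreated cells and fell by 0.32 ± 0.09 (adjusted p = 0.0183 over all features), and stood at −0.00, 0.19 and 0.26 with TNFalpha. That of NM_003879, the accession of a long CFLAR transcript, was at 0.16, −0.17 and −0.07 in cotreated cells (adjusted p = 0.834). The difference between the features was not tested.

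**Figure D3:**
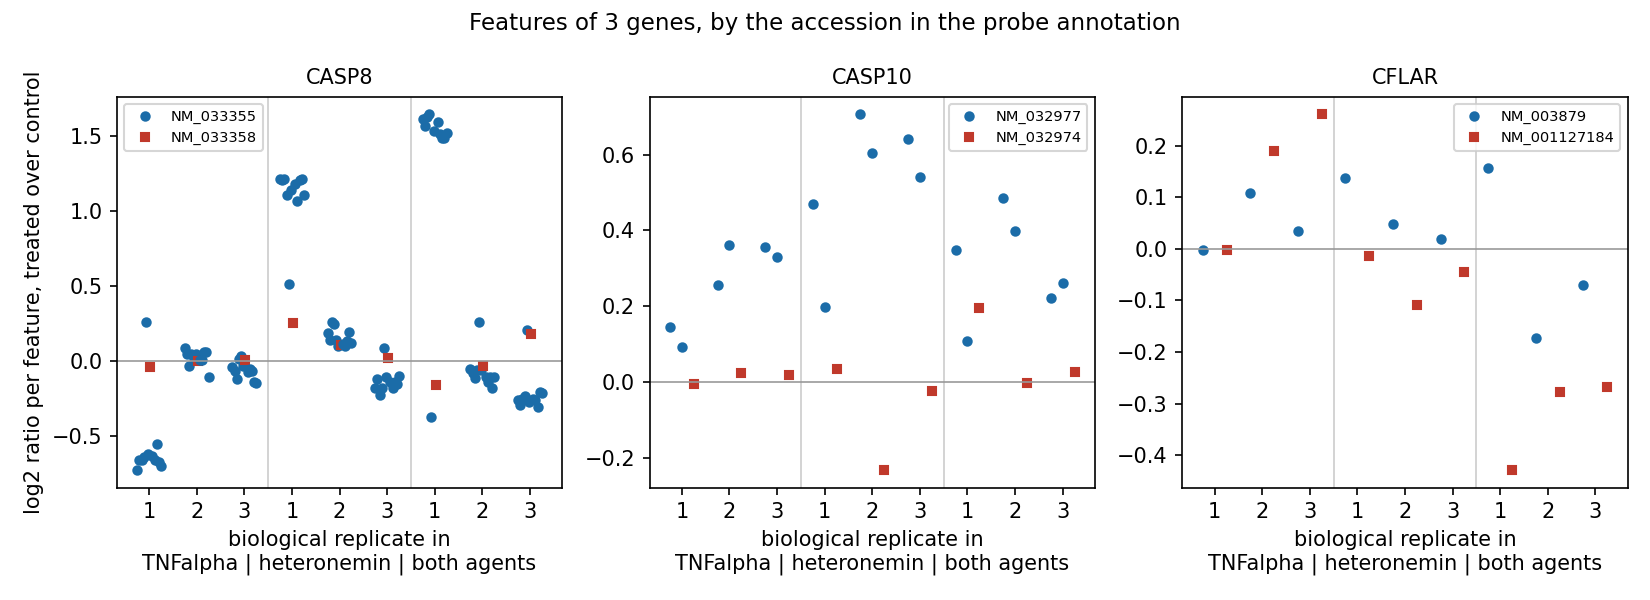
Log2 ratio of every feature (vertical axis, a different range in each panel) of CASP8, CASP10 and CFLAR in replicates 1 to 3 of the TNFalpha, heteronemin and cotreated comparisons (horizontal axis); colour and symbol give the accession of the probe annotation. In CASP8, 10 features of NM_033355 lie near −0.65, 1.19 and 1.55 in replicate 1, while the other features do not; in CASP10 the features of NM_032977 lie above that of NM_032974 in all replicates but 1 (cotreated replicate 1, where they lie on both sides of it).

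Whether heteronemin acted differently on these genes in the presence of TNFalpha was tested as the cotreated ratio minus the ratio of heteronemin alone. None of the 9 genes passed, and 0% of all genes did, with 475 at an unadjusted p under 0.05. CFLAR had the smallest unadjusted p of the 9 genes: the difference was −0.20, −0.19 and −0.16 within the replicate numbers, or −0.18 ± 0.02 (unadjusted p = 0.0211, adjusted p = 1.00), with a 95% interval from −0.33 to −0.03. This SD is that of the differences within replicate numbers. The p and the intervals of this paragraph come from the main fit, which did not pair the replicates, so they do not measure that SD. TNFSF10 was at −0.70, −0.30 and −0.13, with an interval from −0.79 to 0.03. For the called genes the differences were small against their intervals. That of TNFRSF10A was −0.05 (−0.21 to 0.10), that of TNFRSF10B 0.06 (−0.19 to 0.31) and that of CASP10 −0.10 (−0.26 to 0.06). All 3 intervals include 0, and that of TNFRSF10B reaches 0.31, the size of its called change.

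For the 3 called genes, the genes with the most similar ratios over the 9 replicate values were sought among all genes, as a description. The values come from 3 comparisons that share RNA, so their correlation rests on few independent points. ARLN (r = 0.990), EMP3 (0.980) and CETN2 (0.976) were nearest to TNFRSF10A. DUSP1, the gene of a phosphatase that inactivates MAP kinases (r = 0.983), ELL, an elongation factor of RNA polymerase II (0.962), and ZKSCAN2 (0.954) were nearest to TNFRSF10B. DUSP1 had mean ratios of 0.22, 0.42 and 0.45 in the order TNFalpha, heteronemin and cotreated. ZNF787 (0.924), CDK19 (0.917) and NECAB3 (0.912) were nearest to CASP10.

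The wider pathway was described with 4 lists, in which 0 genes were called in any comparison. Over all genes, 0% were called with TNFalpha, 4.87% with heteronemin alone and 6.55% in cotreated cells. Of 11 other death domain receptors, decoys and ligands, TNF itself had the smallest p with TNFalpha, at 0.04, 0.48 and 0.32 (0.28 ± 0.22, adjusted p = 1.00). TNFRSF21, the gene of death receptor DR6, had it in both heteronemin comparisons, at −0.36 ± 0.31 (adjusted p = 0.166) and −0.33 ± 0.28 (adjusted p = 0.165). The list's median was between 0.00 and 0.02 in the 3 comparisons. In TNFalpha and cotreated arrays the TNF gene, which shares the name of the added protein, had opposite signs. It was at −0.05, −0.35 and −0.26 in cotreated cells (limma adjusted p = 0.171), and neither value was called. The TNFalpha RNA is the treated sample in one comparison and the control in the other, so its own deviations enter with opposite sign.

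Among 7 of 10 adaptors and necroptosis kinases measured (RIPK1, PIDD1 and TRAF2 were not analysed here), CYLD, a deubiquitinase of TNF receptor signalling, had the smallest p with heteronemin, at 0.15 ± 0.02 (adjusted p = 0.199). DAXX, a FAS-binding protein, had it in cotreated cells, at −0.26 ± 0.28 (adjusted p = 0.190), and FAF1, another FAS-associated factor, with TNFalpha, at −0.09 ± 0.10. The list's median was −0.01, 0.03 and 0.05 in the order TNFalpha, heteronemin and cotreated.

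Among the 8 genes of the mitochondrial arm, 7 were below 0 with heteronemin and 6 in cotreated cells, none called. The medians were −0.04 and −0.09, beside 0.01 over all genes in both, and the share of all genes below 0 was not counted. With heteronemin BID, CYCS and HTRA2 were below 0 in every replicate. BAX, BAK1, APAF1 and XIAP had replicates on both sides of 0, at means of −0.02, −0.04, −0.04 and −0.16. CYCS, the gene of cytochrome c, had the smallest p with heteronemin (−0.25 ± 0.23, adjusted p = 0.190), and the pore-forming BAK1 in cotreated cells (−0.19 ± 0.12, adjusted p = 0.133). HTRA2, a mitochondrial protease, had it with TNFalpha (−0.11 ± 0.14). Replicate 1 of CYCS with heteronemin, at −0.51, lay apart from the others at −0.11 and −0.13.

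The list of executioner and other caspases and their targets had 8 measured genes. DFFB, the apoptotic nuclease, was at −0.25 ± 0.25 with heteronemin (adjusted p = 0.258), again with replicate 1 lowest, at −0.54 against −0.11 in both others. CASP14 was at −0.13 ± 0.10 in cotreated cells (adjusted p = 0.211) and CASP5 at 0.05 ± 0.15 with TNFalpha. The medians were −0.02, −0.04 and −0.10.

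**Figure D4:**
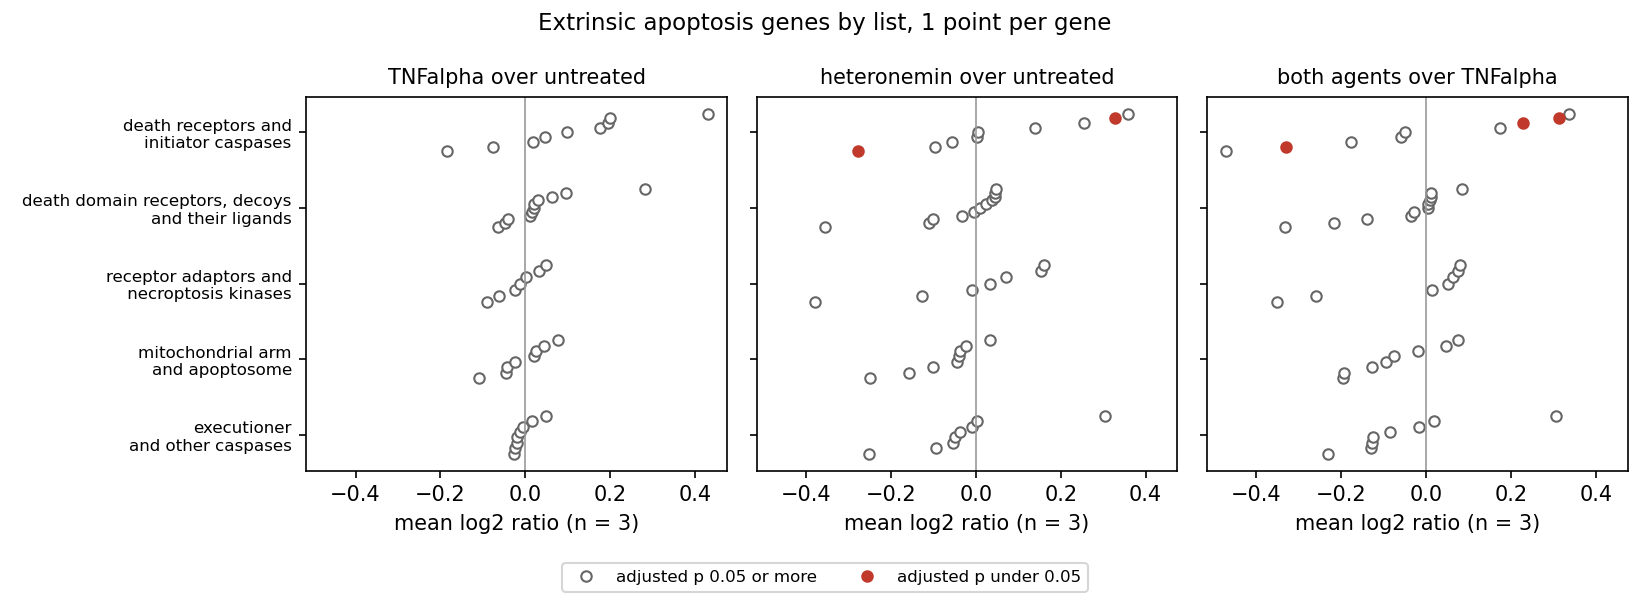
Mean log2 ratio (horizontal axis, n = 3) of each gene of the 9 death receptor and initiator caspase genes and of the 4 pathway lists in the 3 comparisons, 1 point per gene; filled red points were called at an adjusted p under 0.05. The called points are the 2 genes of the first row with heteronemin alone and its 3 genes in cotreated cells.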

How the data were processed

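The authors made 18 columns of deposited log2 ratios with limma, per the submitters' processing notes. Which limma version, background correction or normalization they used is not given in the sources used here. Array medians lay between −0.0145 and 0.0669. Centring near 0 is thus seen in the values, and whether arrays were scaled to each other is unknown. Treated over control was read from the titles. Ratios of dye-exchanged arrays correlated positively in every pair, though weakly with TNFalpha (0.0331 to 0.243). The signs of 1 array of each pair were therefore taken as already flipped. The correlation alone cannot prove this, since a dye effect common to 2 unflipped arrays would also be positive, and it was not tested. Intensities were not used here, the depth behind a ratio is unknown, and precision is limited by the number of arrays.

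Of 45220 features, 13795 without a gene and 93 with several were left out, and 31291 of those kept matched the reference by Entrez ID. For the 18334 genes (7759 with several features) the features and then the 2 arrays of a replicate were averaged. limma 3.58.1 in R 4.3.3 was fitted to the 9 resulting values, with 1 mean per comparison, 1 spread (median residual SD 0.116), empirical Bayes moderation (2.73 prior degrees of freedom) and Benjamini-Hochberg adjustment over all genes. The fit was tested on simulated data with independent noise and 1 spread per gene. That test does not cover the unequal spread of the replicates or their correlation between comparisons.

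The 9 genes and the lists were chosen with earlier results of these data known. Named beyond the 9 are, in each of the 4 pathway lists and each comparison, called genes or else the one with the smallest p, the 3 genes most correlated with each called gene, and the called marker gene GP9. Replicate numbers come from the order of the dye-exchanged arrays in the design text. Same-numbered replicates of the 2 heteronemin comparisons deviated together (correlations across genes 0.781, 0.626 and 0.622). Against the TNFalpha comparison the correlations were −0.210, 0.0306 and −0.0948 for heteronemin alone, and −0.326, −0.220 and −0.274 for the cotreated comparison, in which the TNFalpha RNA is the control, so that its own deviations enter with opposite sign. Alternatives were a replicate block, separate fits, a trended and robust prior, scaled arrays, feature medians, 1 dye only, replicates left out and, chosen after the data were seen, averaging within accessions first and a block on the heteronemin comparisons alone.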

Additional observations from a re-analysis of the deposited data

How the results depend on the processing

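Across 14 alternatives, the 5 called values kept their direction in all 70 results and their call in 31. TNFRSF10A and CASP10 with heteronemin alone were each called in 7 (adjusted p 0.00634 to 0.402 and 0.00224 to 0.303), and TNFRSF10A, TNFRSF10B and CASP10 in cotreated cells in 10, 4 and 3 (0.00494 to 0.222, 0.00460 to 0.420 and 0.00999 to 0.424). With heteronemin alone the 2 calls became 0 when each comparison was fitted alone, with the trended and robust prior, and with Cy3 arrays only. In cotreated cells, where 3 genes were called, these settings called 0, 1 (TNFRSF10A) and 1 (TNFSF10, which is none of the 3). Leaving out 1 replicate gave 0 to 3 and 0 to 6 calls. With the replicate block the counts were 2 and 3, the same genes, and 0 for TNFalpha and for the difference between the heteronemin effects, also with the heteronemin comparisons alone (0). Scaled arrays called TNFRSF10A and TNFSF10 in cotreated cells, so 0 higher and 2 lower against 2 and 1. Of 416 results on the 31 values not called, 8 passed, and 14 values changed sign in some setting. TNFalpha and the difference had 0 calls among the 9 genes in every setting.

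Over all genes, 892 calls with heteronemin alone became 0 with separate fits and with the trended prior, 553 with Cy3 arrays and 2 to 2540 with a replicate left out. In cotreated cells 1200 became 0, 276, 693 and 2 to 3397. For TNFalpha, 0 became 7 with the replicate block, 6 fitted alone, 4 with scaled arrays and with either dye alone, and up to 62 without replicate 1. The cause of these differences was not tested.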
